A study of Rattus norvegicus with 12 samples.

Results

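Acss2, which encodes the cytosolic and nuclear acetyl-CoA synthetase, and 9 genes of fatty acid synthesis (Acly, Acaca, Fasn, Scd, Scd2, Elovl5, Elovl6, Fads1 and Fads2) were examined in the cortex of aged and young rats. The members were every probe set whose symbol is one of these 10 names, which gave 17 of 31099 probe sets and 10 of 14218 genes. They were chosen by the age difference of Acss2 in these arrays, with the other genes added as members of the same pathway, so that their age differences are given as a description, with standard errors and without p-values. The aged group held 6 male Fischer 344 rats of 21 to 23 months and the young group 6 males of the same strain of 3 to 5 months. All 12 rats carried a telemetry implant for EEG and EMG and had been trained in a water maze, and they were killed after its probe trial, so no group was free of surgery or training. Each rat gave 1 RAE230 2.0 array. The sample titles name parietal cortex, whereas the tissue field names frontal cortex. In the methods, parietal cortex is the tissue dissected for the arrays.

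Cells build fatty acids from acetyl-CoA. ATP citrate lyase (Acly) splits citrate, and Acss2 joins acetate to coenzyme A, to supply it outside mitochondria. Acetyl-CoA carboxylase (Acaca) makes malonyl-CoA, fatty acid synthase (Fasn) strings these units into palmitate, Elovl enzymes lengthen the chain, and Scd and Fads enzymes put in double bonds. In the brain the pathway is known for its use in myelin, and Acss2 is known in mouse neurons as a source of acetyl-CoA for histone acetylation.

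Promoter windows of RefSeq (GRCr8, 250 bases before to 50 bases after the start) were found for 7 of the 10 genes, those other than Acaca, Fasn and Elovl6. Shown are Acss2, Fads1, which had a correlation of 0.91 with Acss2 within age groups, and Fads2, the other desaturase of polyunsaturated fatty acids, with -0.27. They were picked by these correlations, and a link between a box and the correlation was not tested. Capitals mark matches on either strand to CCAAT (the NF-Y box) or GGGCGG (the Sp1 box), neither of which overlapped the other here.
Acss2, chr3:164464453-164464752, plus strand: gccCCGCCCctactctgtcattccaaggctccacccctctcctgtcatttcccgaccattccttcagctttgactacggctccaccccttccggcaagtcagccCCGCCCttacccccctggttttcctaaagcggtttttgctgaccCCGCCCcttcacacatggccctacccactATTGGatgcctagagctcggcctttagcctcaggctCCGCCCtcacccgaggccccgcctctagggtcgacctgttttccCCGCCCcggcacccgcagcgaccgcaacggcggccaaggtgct
Fads1, chr1:216252442-216252741, plus strand: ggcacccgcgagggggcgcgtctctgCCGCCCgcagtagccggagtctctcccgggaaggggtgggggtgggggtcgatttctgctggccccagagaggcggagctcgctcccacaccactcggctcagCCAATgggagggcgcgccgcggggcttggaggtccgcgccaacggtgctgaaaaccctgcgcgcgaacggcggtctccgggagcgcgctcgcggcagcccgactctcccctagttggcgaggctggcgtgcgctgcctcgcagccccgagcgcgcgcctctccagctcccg
Fads2, chr1:216171984-216172283, minus strand: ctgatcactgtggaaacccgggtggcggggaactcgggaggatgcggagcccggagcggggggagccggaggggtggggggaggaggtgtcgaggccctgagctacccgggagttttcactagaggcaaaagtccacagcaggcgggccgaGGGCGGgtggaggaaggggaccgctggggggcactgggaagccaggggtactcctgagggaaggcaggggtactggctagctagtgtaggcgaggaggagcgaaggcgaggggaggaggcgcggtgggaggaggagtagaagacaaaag
The Acss2 window held 1 CCAAT and 5 GGGCGG matches. The Fads1 window held 1 of each, and the Fads2 window held no CCAAT and 1 GGGCGG. The CCAAT box lay in 5 of the 7 windows, against 37.5% of 33469 rat windows of the same length, and the GGGCGG box lay in 4, against 33.1%. Besides Acss2 and Fads1, the windows with a CCAAT box were those of Acly, Scd2 and Elovl5. Their correlations with Acss2 were -0.38, 0.63 and -0.17. The letters TCACNCCAC, a sterol regulatory element, lay in 0 of 7 (1.12% of all windows), and the E-box CACGTG lay in 1, that of Elovl5 (6.42%). These are letter matches only.

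The members differed little between aged and young cortex. Acss2 had the most negative difference, an aged signal 0.891-fold that of young. Both probe sets of Elovl6, which lengthens palmitate, were at 0.908-fold. The best measured probe sets of Acly, Acaca, Fasn, Scd, Scd2, Elovl5, Fads1 and Fads2 lay between 0.969-fold (Fads1) and 1.02-fold (Acaca). In none of the 17 probe sets were the 6 aged and 6 young rats fully apart, which was so for 0.621% of the 28193 probe sets tested. The plot of signals by rat shows each gene with its probe set of highest mean.

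**Figure D1:**
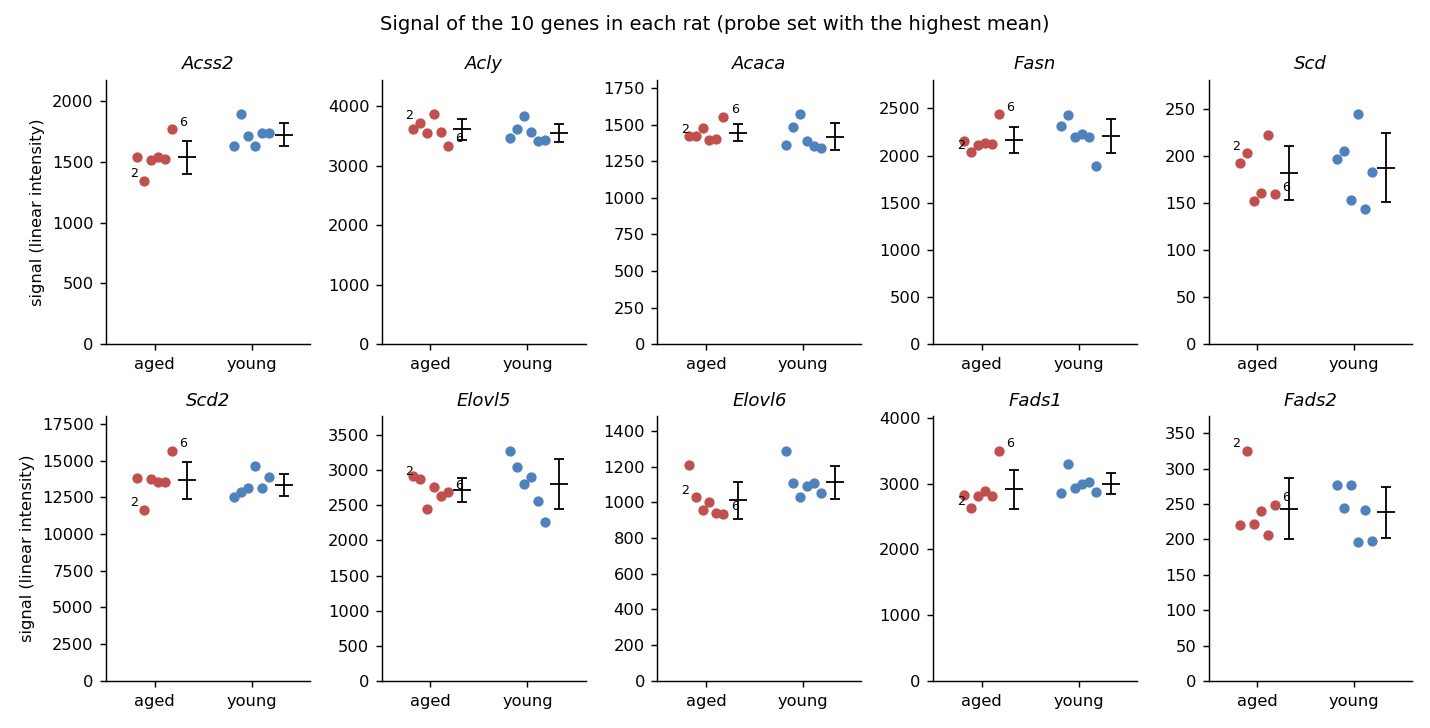
Signal (linear intensity) of the 10 genes in each rat, read from the probe set with the highest mean, with aged rats left and young rats right, each point 1 rat and the bar the mean ± SD (n = 6). Aged rats 2 and 6 are numbered, and 5 of 6 aged rats lie below every young rat for Acss2, with aged rat 6 the exception.

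The signal of Acss2 in aged rats had a lowest value of 1343, a median of 1531 and a highest of 1766, and in young rats a lowest of 1629, a median of 1723 and a highest of 1891. Thus 5 of 6 aged rats lay below all young rats, and aged rat 6, at 1766, lay above 5 of them. The mean was 1537 ± 135 in aged and 1723 ± 95.7 in young rats (SD, n = 6 each). The log2 difference, aged minus young, was -0.17 (SE 0.071). It was -0.21 without aged rat 6 and -0.13 without aged rat 2, which had the lowest signal. In RNA from a piece of tissue, fewer cells of a type and less RNA per cell cannot be told apart.

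Acly, the citrate route to the same acetyl-CoA, had an aged signal with a lowest value of 3338, a median of 3591 and a highest of 3864, against 3414, 3515 and 3826 in young rats. The groups overlapped almost wholly, and the log2 difference was 0.022 (SE 0.057). Acaca, the enzyme of the committed step, was read by a pair of probe sets. The brighter one had a lowest, median and highest signal of 1396, 1419 and 1551 in aged rats and 1342, 1375 and 1570 in young rats, a log2 difference of 0.029 (SE 0.060). The dimmer one had 201, 262 and 282 in aged rats and 151, 229 and 273 in young rats, a log2 difference of 0.19 (SE 0.15). Its spread was wider than that of the brighter one, with a coefficient of variation of 12.7% in aged and 20.4% in young rats.

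Fasn, which assembles palmitate, had a lowest, median and highest signal of 2036, 2131 and 2438 in aged rats and 1891, 2210 and 2434 in young rats for its brighter probe set. The log2 difference was -0.025 (SE 0.072), and the highest value was that of aged rat 6. The dimmer Fasn probe set had 458, 581 and 606 in aged rats and 555, 591 and 657 in young rats. Its log2 difference was -0.11 (SE 0.084), and aged rats 2 and 3 lay below all young rats.

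Among the desaturases that make monounsaturated fatty acids, Scd2, the main form in rodent brain, was read by 4 probe sets. Its brightest one had a lowest, median and highest signal of 11650, 13655 and 15651 in aged rats, against 12548, 13123 and 14595 in young rats. The log2 difference was 0.029 (SE 0.074), and the aged group held both extremes, aged rat 2 lowest and aged rat 6 highest. The second probe set had a log2 difference of 0.050 (SE 0.10). The other two, at signals of 126 to 386 and 127 to 238 in aged rats and 122 to 273 and 84.6 to 174 in young rats, gave 0.24 (SE 0.30) and 0.30 (SE 0.20). All 4 were positive, and the 2 dim ones had the widest errors among the members. With 1 rat left out the first of these ran from 0.065 (without aged rat 5) to 0.39 (without aged rat 2), and it was 0.79 within the higher and 0.054 within the lower series of sample codes. The other ran from 0.17 (without young rat 1) to 0.38. Scd, the form known best from liver and fat, had 152, 177 and 223 in aged rats and 144, 190 and 245 in young rats, a log2 difference of -0.039 (SE 0.14).

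Of the elongases, Elovl6 was read alike by both of its probe sets. The brighter one had a lowest, median and highest signal of 934, 977 and 1211 in aged rats and 1027, 1098 and 1287 in young rats, with 4 of 6 aged rats below all young rats. The dimmer one had 705, 791 and 950 in aged rats and 752, 910 and 1038 in young rats. Both had a log2 difference of -0.14 (SE 0.081 and 0.11). In the brighter probe set rat 1 was the highest of the aged group (1211) and the rat numbered 1 of the young group was its highest too (1287). Elovl5, which lengthens polyunsaturated chains, had age differences of opposite sign in its probe sets, and whether these differed from each other was not tested. The brighter one had 2449, 2718 and 2910 in aged rats and 2264, 2855 and 3274 in young rats, a log2 difference of -0.040 (SE 0.091). The dimmer one had 465, 568 and 674 in aged rats and 394, 503 and 689 in young rats, a log2 difference of 0.14 (SE 0.14).

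Fads2 and Fads1 catalyse the first and the later desaturation on the way to arachidonic and docosahexaenoic acid. Fads1 had a lowest, median and highest signal of 2625, 2825 and 3500 in aged rats, against 2863, 2964 and 3294 in young rats. As with Acss2 and the brighter Elovl6 probe set, most aged rats (4 of 6 for Fads1) lay below every young rat. This count was not set against that of all probe sets. For Fads1, though not for Acss2, aged rat 6 had the highest signal of all 12. The log2 difference was -0.045 (SE 0.075). Fads2 had 206, 231 and 325 in aged rats and 196, 243 and 277 in young rats, a log2 difference of 0.027 (SE 0.13), with aged rat 2 the highest.

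As a description of where the members stand in the fit over all probe sets, 0 of the 17 passed an adjusted p of 0.05, which 0.0248% of the 28193 tested probe sets did, 0 passed an unadjusted p of 0.01 (2.15%) and 1, that of Acss2, passed an unadjusted p of 0.05 (7.80%). Because the members were chosen with the age contrast, nothing is read from these counts. Of the 17, 9 had a positive and 8 a negative difference, with a median of 0.022 on the log2 scale, beside 42.3% negative and a median of 0.029 over all tested probe sets. By gene, 4 were positive and 6 negative (median -0.032, against 0.024 over all genes). The sign of such small differences depended on the scaling. With each array centred on its median, 13 of 17 probe sets and all 10 genes were negative, while the median over all tested probe sets moved to -0.041. Acss2 (-0.24 to -0.053 over 27 other settings) and the brighter Elovl6 probe set (-0.21 to -0.095) kept their sign in each of those settings, as did the dimmer Elovl6 probe set (-0.21 to -0.086) in the 25 that apply to it. The dimmer probe sets of Acaca and Elovl5 and the 2 dim ones of Scd2 stayed positive in their 25. Settings that changed only the filter, the variances of the test or the block for subject number could not alter any of these differences. A kept sign in them was fixed in advance. With code series as a block, the dimmer Acaca probe set had 0.12 and the dimmer Elovl5 probe set 0.074. The 2 dim Scd2 probe sets had 0.36 and 0.38 in that setting. The plot of age differences gives all 17 with their errors.

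**Figure D2:**
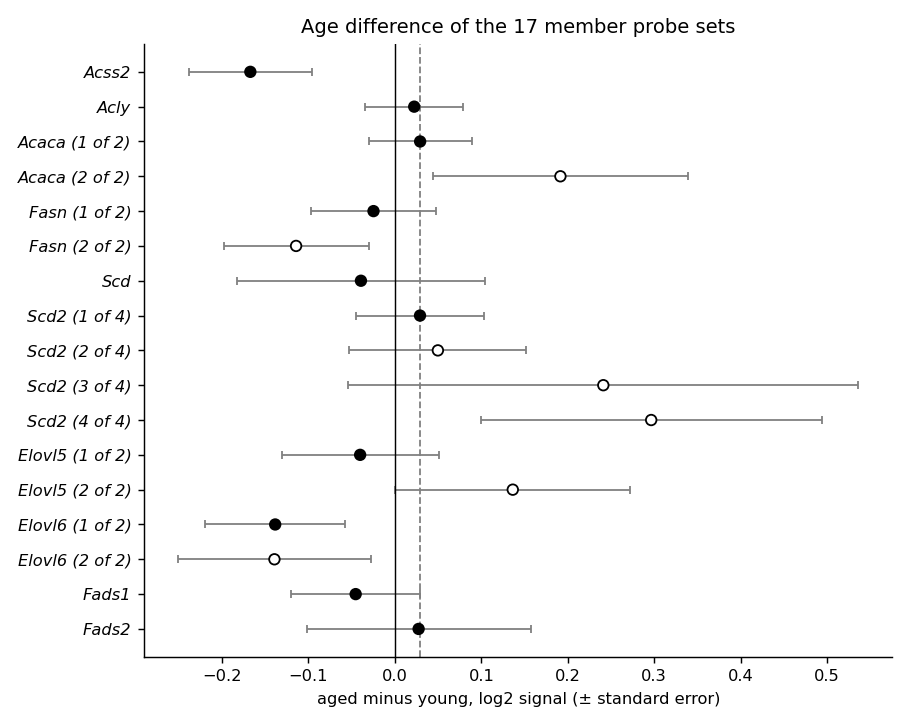
Age difference of the 17 member probe sets, aged minus young, on the log2 scale (x axis) with its standard error, numbered within each gene by mean signal and filled for the probe set of highest mean. The dashed line is the median of all tested probe sets, 0.029, and Acss2 and both Elovl6 probe sets lie farthest to its left.

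The arrays shared a trimmed mean but not a median. The median signal ran from 168 to 194 in aged and from 162 to 172 in young rats, with aged rat 6 at 194, and the mean correlation of an array with the others from 0.945 (aged rat 2) to 0.957. All 17 member probe sets lay above the filter (a log2 signal of 4.3) on all 12 arrays. On the scale of the deposited values this filter kept 90.7% of all probe sets, so that passing it does not mark detection. The marker lists of several cell types leaned to 1 sign. All 11 myelin genes had a positive difference (median 0.24, summed signal 35909 to 58671 in aged and 34609 to 50759 in young rats), as did 8 of 9 microglial genes (median 0.20, 5218 to 10310 in aged and 4603 to 6328 in young rats). Aged rat 6 alone held the 10310. Of 11 neuronal genes 9 were negative (median -0.089, 59492 to 64401 in aged and 60368 to 74585 in young rats). All 6 endothelial genes and 4 of 5 blood genes were positive, as were 6 of 8 astrocyte and 3 of 4 choroid plexus genes, and all 5 meningeal genes were negative. Over all genes 43.1% were negative and the median was 0.024, so most genes were positive too. The sign counts of the marker lists are on the deposited scale only. With each array centred on its median, the median of all tested probe sets was -0.041. The astrocyte median, 0.033, lay close to that of all genes. No gene of these lists passed an adjusted p of 0.05. Of the 6 adipocyte genes, 2 lay below the filter on all arrays. Across the 12 rats, with age group means taken off, 0 of 20 correlations of a member with the myelin or the neuronal marker mean passed an adjusted p of 0.05 (permutation within age groups, smallest adjusted p = 0.460). Without aged rat 2, 2 of the 20 passed. The part of cell content in the age differences was not tested.

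The sample codes fall into a lower and a higher number series, with 4 aged and 3 young rats in the lower and 2 aged and 3 young rats in the higher one. What the series stand for is not stated. Several member probe sets had larger differences between the series than between the ages. The dimmer Acaca probe set ran from 151 to 224 in the higher and from 242 to 282 in the lower series, a log2 difference, higher minus lower, of -0.42 (SE 0.091, adjusted p = 0.227). The dimmer Elovl5 probe set ran from 394 to 490 in the higher and from 534 to 689 in the lower series (-0.37, SE 0.089, adjusted p = 0.250). The second Scd2 probe set ran from 4562 to 5461 in the higher and from 5489 to 6751 in the lower series (-0.26, SE 0.073, adjusted p = 0.260). In these 3 of 17 the series did not overlap, which was so for 1.21% of all tested probe sets. The brighter probe sets of Acaca and Elovl5 did overlap between the series, with smaller differences of -0.035 (SE 0.061) and -0.15 (SE 0.085). The dimmest Scd2 probe set had the opposite sign, with 130 to 238 in the higher and 84.6 to 162 in the lower series (0.49, SE 0.15, adjusted p = 0.274). The third Scd2 probe set, with 122 to 386 in the higher and 126 to 224 in the lower series, had the largest difference of any member (0.69, SE 0.24, adjusted p = 0.302), and the brightest had 0.13 (SE 0.067, adjusted p = 0.439). Of the 4 probe sets of Scd2, 3 were thus positive and 1 negative.

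**Figure D3:**
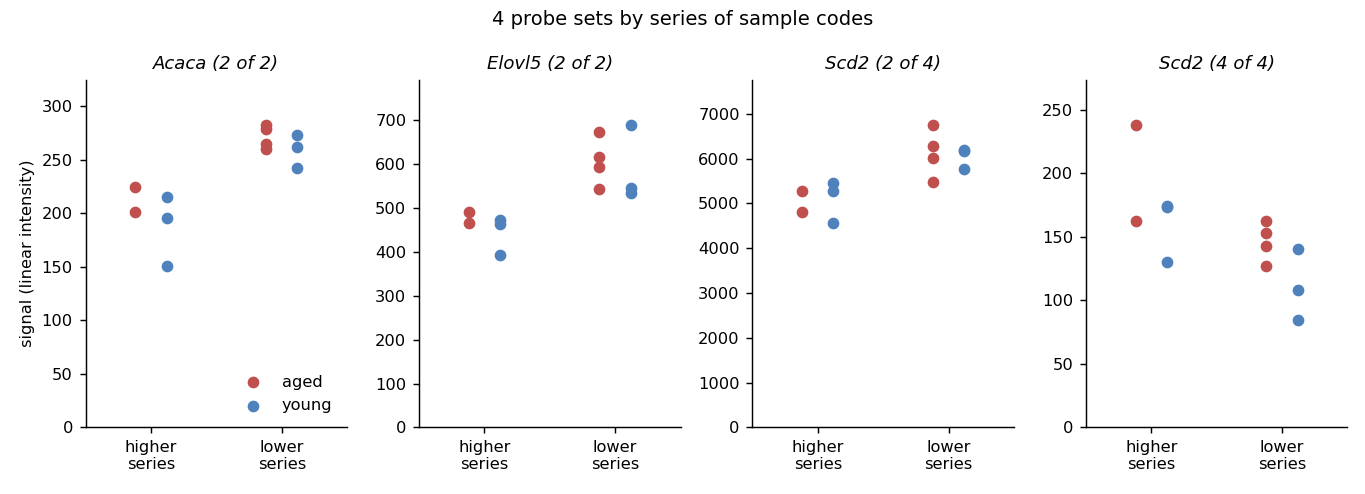
Signal (linear intensity) of the 4 member probe sets with the smallest p for code series, chosen after their values were seen, with the higher series left and the lower series right, aged and young rats in separate colours and each point 1 rat. In the first 3 panels the higher series lies wholly below the lower one, and in the fourth it lies mostly above.

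By limma with age in the model, 4 of 17 member probe sets passed an unadjusted p of 0.01 for series, against 3.52% of all tested, and 0 passed an adjusted p of 0.05, as was so for every one of the 28193 (smallest adjusted p = 0.133). Within the series, the age difference of Acss2 was -0.053 in the higher and -0.23 in the lower series. The brighter Elovl6 probe set had -0.21 in the higher and -0.12 in the lower series. The difference of the age effect between series passed an adjusted p of 0.05 for 0 of 17 members, and an unadjusted p of 0.05 for 0 of 17 (3.20% of all tested, limma interaction).

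Rats with a high Acss2 signal within their age group also had a high Fads1 signal. With age group means taken off, Pearson's r of the log2 signals was 0.91 across the 12 rats (permutation p = 0.00168, adjusted over 9 members 0.0151), and Spearman's rho was 0.71 (permutation p = 0.0171, adjusted 0.154). It was 0.95 in the aged rats (exact permutation p = 0.00278) and 0.79 in the young rats (exact permutation p = 0.0625). In the higher code series r was 0.83 and in the lower series 0.96. With age group and code series means both taken off, r was 0.87 and the adjusted call was lost (adjusted permutation p = 0.130). With each array centred on its median, r was 0.82 (adjusted permutation p = 0.0198). Aged rat 6 was 0.20 above its group mean for Acss2 and 0.27 above it for Fads1, aged rat 2 was lowest for both, at -0.19 and -0.14, and young rat 2 was highest of its group for both, at 0.14 and 0.14. Leaving out aged rats 2 and 6, the farthest from the median of Acss2, gave r = 0.79 (permutation, adjusted p = 0.486), and leaving out aged rat 6 and young rat 2 gave 0.74 (permutation, adjusted p = 0.252). With only aged rat 2 left out r was 0.90 (adjusted permutation p = 0.0988), with only aged rat 6 left out 0.84 (0.101) and with only young rat 2 left out 0.89 (0.138). The adjusted call was thus lost in each of these cases with rats left out, while r stayed positive and between 0.74 and 0.90.

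**Figure D4:**
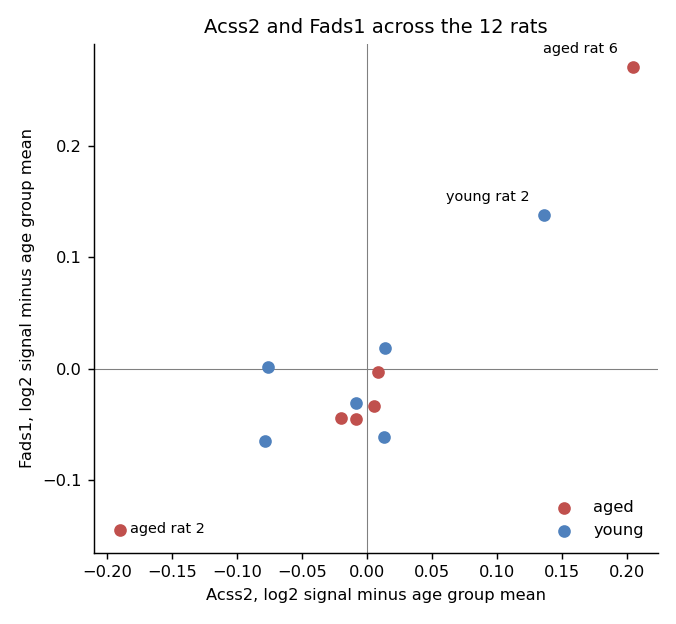
Log2 signal of Acss2 (x axis) and Fads1 (y axis), each minus the mean of the rat's age group, with each point 1 of 12 rats and aged and young rats in separate colours. Aged rat 6 and young rat 2 stand at the upper right and aged rat 2 at the lower left, and the other rats lie close together.

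The other 8 members did not pass. The r with Acss2 was 0.63 for Scd2 (adjusted permutation p = 0.173), 0.56 for Fasn (0.173) and 0.47 for Acaca (0.221), and it ran from -0.38 (Acly) to -0.17 (Elovl5) for the rest. For Scd2 the aged rats gave 0.99 (exact permutation p = 0.0583) and the young rats -0.31 (exact permutation p = 0.543). For Fasn the aged rats gave 0.94 (exact permutation p = 0.00278) and the young rats 0.21 (exact permutation p = 0.682). Without aged rats 2 and 6 the r with Scd2 was -0.31, so the sign rested on those rats. The r with Fasn was 0.30 without aged rat 6, and -0.067 without aged rat 6 and young rat 2. Without young rat 6, Fasn also passed, with r = 0.85 (adjusted permutation p = 0.0364). Among members, Fads1 also had an r of 0.76 with Fasn and 0.65 with Scd2, and Fads2 had -0.67 with Scd2, given without a test. Of 19255 probe sets with 1 symbol ranked by r with Acss2 across the 12 rats, Fads1 stood at rank 7. The 8 nearest were Zfp280c (0.95), Mpp3 (0.94), Ccdc141 (0.92), Mtfr1, Tarbp1, Slc39a8, Fads1 (each 0.91) and Cd2ap (0.91), of which Tarbp1 (0.19) and Cd2ap (0.076) had positive age differences.

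Of 77 other genes of the pathway and its surroundings that were tested, 0 passed an adjusted p of 0.05, 43 had a positive and 34 a negative difference, and the median was 0.025, against 0.024 over all genes. At an unadjusted p of 0.05, 6 were positive and 1 negative, beside 8.28% of all 13253 genes, and at 0.01 1 gene, Srebf1, was left, beside 2.24% of all genes. Both counts lie near the share over all genes. Of 14 regulators 11 were positive and 3 negative (median 0.077), beside 43.1% negative over all genes. Sign counts of this and the other lists are given on the deposited scale only. With each array centred on its median, the median of all tested probe sets was -0.041. Srebf1, the transcription factor that drives many of the member genes in liver, had a mean signal of 728 ± 95.3 in aged and 567 ± 35.8 in young rats (SD, n = 6 each), a log2 difference of 0.35 (SE 0.093, adjusted p = 0.350). Aged rats ran from 567 to 847 and young rats from 520 to 631. Mlxipl, the carbohydrate response factor, had 0.54 (SE 0.18, adjusted p = 0.496), Rxra, a partner of nuclear receptors, 0.64 (SE 0.27, adjusted p = 0.597) and Nr1h2, a liver X receptor, 0.13 (SE 0.082, adjusted p = 0.756).

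The 12 genes of acetyl-CoA and NADPH supply were split 6 to 6 (median -0.014). The mitochondrial relatives of Acss2 had differences of the other sign than Acss2, with 862 ± 101 in aged and 740 ± 151 in young rats for Acss1 (0.24, SE 0.14, adjusted p = 0.725) and 237 ± 32.4 in aged and 202 ± 37.1 in young rats for Acss3 (0.24, SE 0.13, adjusted p = 0.696). Pgd, an enzyme of the pentose phosphate route, had 0.11 (adjusted p = 0.766) and Pdhb, a subunit of pyruvate dehydrogenase, -0.088 (adjusted p = 0.809). Of 15 other synthesis, elongation and desaturation enzymes, 9 were positive and 6 negative (median 0.036). Hacd4, a dehydratase of chain elongation, had a low signal, 35.7 ± 13.1 in aged and 18.7 ± 9.98 in young rats, the young mean lying under the filter's signal of 19.7. Its difference was 1.05 (SE 0.35, adjusted p = 0.492), and 0.38 by the mean of its probe sets. Olah, a thioesterase that releases chains from fatty acid synthase, had 0.47 (adjusted p = 0.597), Hsd17b12, a reductase of elongation, 0.082 (adjusted p = 0.777) and Mcat, of mitochondrial fatty acid synthesis, 0.18 (adjusted p = 0.780).

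Of 13 acyl-CoA synthetases and binding proteins, 5 were positive and 8 negative (median -0.035). The 4 with the smallest p were Acsl4, which activates arachidonic acid (-0.10, adjusted p = 0.777), the binding proteins Fabp3 (-0.082, adjusted p = 0.876) and Fabp7 (0.10, adjusted p = 0.903), and Acsl5 (-0.051, adjusted p = 0.906). Of 9 genes of AMP-activated kinase, which inhibits acetyl-CoA carboxylase, 6 were positive and 3 negative (median 0.063). Prkaa1, a catalytic subunit, had 0.16 (adjusted p = 0.736), Prkab2, a scaffold subunit, -0.15 (adjusted p = 0.784) and Prkag1, a regulatory subunit, 0.063 (adjusted p = 0.900). Stk11, the upstream kinase, had 0.72 (SE 0.53, adjusted p = 0.790), and 0.19 without young rat 4 or 0.093 by the mean of its probe sets. Its signal was low, 26.8 ± 7.92 in aged and 19.66 ± 9.59 in young rats, the young mean lying just under the filter's signal of 19.70. Of 14 cholesterol synthesis genes, 6 were positive and 8 negative (median -0.025). Cyp51, a demethylase of lanosterol, had 3577 ± 206 in aged and 4152 ± 451 in young rats (-0.21, SE 0.080, adjusted p = 0.563) and Msmo1, which acts later on the same route, had -0.16 (adjusted p = 0.648). Mvk, mevalonate kinase, had 0.24 (adjusted p = 0.615) and Ebp, a sterol isomerase, 0.15 (adjusted p = 0.754). The plot of related genes sets these lists beside the members.

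**Figure D5:**
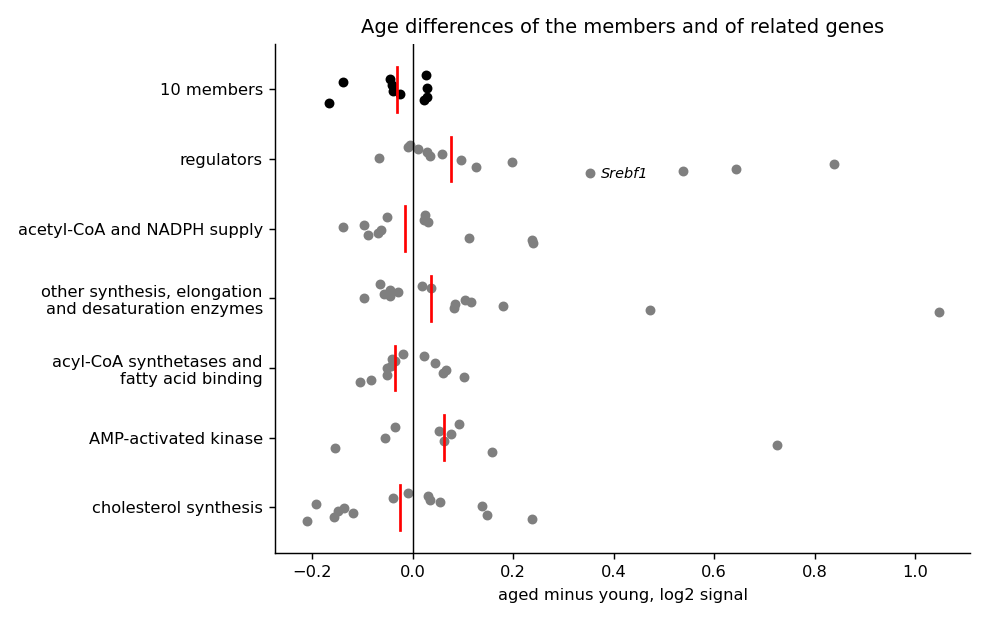
Log2 difference, aged minus young (x axis), of the 10 members (black) and of the tested genes of 6 related lists (grey), each point 1 gene read from its probe set of highest mean, with the list's median in red. The medians lie between -0.035 and 0.077, and Srebf1 is named among the regulators.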

How the data were processed

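Cortical RNA of 6 aged and 6 young rats was hybridised to 1 RAE230 2.0 array per rat. The values that the authors deposited are linear intensities, 1 for each probe set on each array, and after 2% of values were trimmed at both ends every array had a mean of 500.1. In the methods, gcRMA and a target intensity of 500 are named. The processing notes of the submitters list MAS5, GCRMA and R 2.7.1, and which step came first is not given in the sources used here. Because the design of the tests had assumed log2 values, the log2 of each intensity was taken with no further normalization. Probe sets with a log2 signal above 4.3 (a signal of 19.7) on at least 3 arrays were kept, 28193 of 31099. The methods set that cutoff for gcRMA values, and on this scale it is only a filter. On arrays the number of rats limits the precision.

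Symbols came from the platform annotation (1 symbol for 20832 probe sets, several for 436, none for 9831), updated by gene ID for the 20764 whose ID was in a RefSeq gene table (GRCr8). A gene was read from its probe set of highest mean. Aged and young rats were compared with limma 3.58.1 (lmFit and eBayes, R 4.3.3, two-sided, Benjamini-Hochberg over all probe sets). Code series, and then its interaction with age, were added as terms. Correlations across rats used 100000 permutations within age groups, with exact enumeration inside a group of 6. Markers were summed as linear signals. Of these steps, only the limma comparison of aged and young rats was tested on simulated data. Plots were made in matplotlib 3.10.9 under Python 3.11.15.

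The members and the lists were chosen with earlier results of these data known. Named were all members, the 4 genes of each pathway list with the smallest p and any past an adjusted p of 0.05, and the 8 probe sets most like Acss2. Other settings tried were a quantile or median scaling, cutoffs of 3.5 and 5.5 or none, probe sets averaged per gene or reduced to 1 per gene, limma with a trend and robust variances or with array weights, the methods' t-test, blocks for subject number and for code series, each code series alone, Spearman's rho, and each rat left out. Leaving out 2 rats together was added after the data were seen. The subject numbers did not pair the rats.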

Additional observations from a re-analysis of the deposited data

Results flagged for a closer look

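For 82 combinations of a named probe set and an age group, the gap between the most distant rat and its nearest neighbour was set against the range of the group of 6. In 7 it exceeded the 95% critical value of Dixon for 6 values, as chance gives in about 1 in 20. Of these, 4 of 34 concerned members. Aged rat 6 stood above the other aged rats for the brighter Fasn probe set (signal 2438, others 2036 to 2159) and for Fads1 (3500, others 2625 to 2895). For the brighter Elovl6 probe set, aged rat 1 had 1211 (other aged rats 934 to 1029) and young rat 1 had 1287 (other young rats 1027 to 1109). Young rat 4 stood apart in 3 related genes, with 1159 for Acsl5 (other young rats 983 to 1042), 74.5 for Prkab2 (98.2 to 110) and 2.45 for Stk11 (17.1 to 31.0). No named probe set passed the limma test for a difference of the age effect between code series (smallest adjusted p over all probe sets 0.335).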

How the results depend on the processing

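The age difference of Acss2 was -0.053 within the higher code series and from -0.21 to -0.13 with 1 rat left out. Negative member probe sets numbered 13 with median centring and 5 within the higher series (8 in the report), and negative member genes 10 and 3 (6 in the report). Over all probe sets, 7 passed an adjusted p of 0.05, and 4 did with quantile normalization, 3 with median centring, 2 with an intensity trend and robust variances, 2 with subject number as a replicate block, 2 without aged rats 2 and 6, 0 in each code series alone and from 0 to 10 with 1 rat left out (0 without aged rat 1, 3 or 6 or young rat 1). At an unadjusted p of 0.01, where 605 probe sets passed, 331 genes passed as the mean of their probe sets, 334 with 1 probe set per gene, 377 probe sets in the higher and 303 in the lower series. Of these, 460 were positive and 145 negative, against 258 and 341 with median centring and 271 and 221 with quantile normalization. Pathway genes at that p numbered 1 in the report, 0 with median centring, within the higher series and without aged rats 2 and 6, 2 with the trend, the replicate block, the series block and within the lower series, and from 1 to 3 with 1 rat left out.

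The correlation of Acss2 with Fads1 lost its adjusted call as Spearman's rho (0.71), with code series means taken off too (0.87, adjusted permutation p = 0.130), without aged rats 2 and 6 (0.79) and without aged rat 6 and young rat 2 (0.74), and each of these left 0 members passing. With 1 rat left out r ran from 0.84 to 0.94 and from 0 to 2 members passed (Fads1 and Fasn without young rat 6). Signs turned for Acss2 with Fads2 (-0.44 to 0.24 with 1 rat left out, 0.064 without aged rats 2 and 6), with Acly (-0.50 to 0.012, and 0.16), with Scd2 (-0.31 without aged rats 2 and 6) and with Fasn (-0.067 without aged rat 6 and young rat 2). The difference of Prkag1 was -0.0077 with median centring, and by the mean of probe sets that of Acsl5 was 0.038 and that of Mcat -0.024. The causes were not tested. Subject numbers did not pair the rats (same-number correlation -0.028 to 0.11). Each number was held by 1 aged and 1 young rat, so the replicate block could not change the age difference of a member.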
